A study of Mus musculus with 6 samples.

Results

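A set of 55 genes of the cell division cycle was followed in mouse kidney mRNA on day 0 and day 21 of gavage feeding of adenine and potassium oxonate. The genes were chosen by name from textbook function, with earlier results of these data already known. Each of the 55 symbols matched 1 row of the 55450 genes counted. By textbook function, 25 were placed in G1/S, the entry into DNA replication, and 30 in G2/M, the passage into and through mitosis. The bounds are not sharp. Ccna2, placed in G2/M, acts in S and G2 phase, and Mybl2, placed in G1/S, encodes the B-MYB of the MuvB complexes described below. A cell that leaves the resting state first makes D cyclins, then E cyclins with their partner CDK2, and the E2F factors released from the retinoblastoma proteins switch on the genes of replication. Cyclins A and B with CDK1 and the factor FOXM1 drive the later wave, in which spindle, centromere and checkpoint genes are made for a single division. Adult kidney tubule cells divide rarely, and re-entry into the cycle is a known feature of tubule repair and of immune and stromal cells that proliferate in injured kidney.

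Kidney tissue of 3 mice of the day-0 group and 3 mice of the day-21 group were sequenced. All were male wild-type C57BL/6J mice, bought at an age of 7 weeks and kept for 1 week before the study. Day-21 mice received a daily oral gavage of 0.16 g/kg adenine mixed with 2.4 g/kg potassium oxonate, a uricase inhibitor, and the combination raises serum uric acid and injures tubules. The day-0 mice are the control group and carry the treatment label 20%PEG, while no PEG is recorded for the day-21 mice. By the study's methods each group was killed on its own day, which would place the collection of the day-0 mice 21 days earlier. Treatment, PEG and 21 days of age cannot be told apart. Libraries held 10963849 to 14256556 counts in the day-0 group and 12662200 to 14333311 in the day-21 group. A gene at 3 counts, taken as the detection floor, stood at 0.179 to 0.309 CPM, which stands for counts scaled to a common TMM-adjusted library total, and this floor covers counting error only. Kidney identity was plain in all 6 libraries, since the 8 proximal tubule markers summed to between 21152 and 32668 CPM on day 0 and between 3582 and 5169 CPM on day 21.

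Many, but not all, of the promoters of these genes carry letters through which the waves of transcription are known to be timed. E2F factors read the E2F site, the MuvB complexes with B-MYB or FOXM1 read the cell cycle homology region, and NF-Y reads the CCAAT box. RefSeq promoter windows on GRCm38.p6, from 250 bases before to 50 after a start, were matched for 44 of the 55 genes and gave 48 windows, 23 of 20 G1/S genes and 25 of 24 G2/M genes. Stretches of 150 bases that end at the start are shown for 2 replication genes with E2F sites and 4 mitosis genes with homology regions. Of the mitosis genes, Cdk1 and Mki67 also carry an E2F site, which was found in 3 of the 25 G2/M windows. They lie at chr1:128359706-128359855 on the minus strand for Mcm6, a subunit of the replicative helicase, and at chr7:102441545-102441694 on the plus strand for Rrm1, the large subunit of ribonucleotide reductase. The mitosis genes lie at chr10:69352913-69353062 for Cdk1, the kinase of mitotic entry, at chr4:118437344-118437493 for Cdc20, the activator of the anaphase-promoting complex, at chr11:99024190-99024339 for Top2a, the topoisomerase that untangles chromosomes, and at chr7:135716380-135716529 for Mki67, which coats mitotic chromosomes, all on the minus strand. Each is written along its own gene, and capitals mark E2F sites (TTCCCGC or else TTCGCGC or else TTGCCGC or else TTGGCGC), homology regions (TTTGAA) and CCAAT boxes (CCAAT), each on either strand.
Mcm6: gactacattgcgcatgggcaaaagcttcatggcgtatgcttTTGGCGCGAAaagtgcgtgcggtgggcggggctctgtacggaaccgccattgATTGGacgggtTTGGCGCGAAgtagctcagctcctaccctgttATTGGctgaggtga
Rrm1: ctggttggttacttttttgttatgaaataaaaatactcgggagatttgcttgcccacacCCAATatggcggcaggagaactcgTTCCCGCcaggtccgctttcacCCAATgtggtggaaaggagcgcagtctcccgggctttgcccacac
Cdk1: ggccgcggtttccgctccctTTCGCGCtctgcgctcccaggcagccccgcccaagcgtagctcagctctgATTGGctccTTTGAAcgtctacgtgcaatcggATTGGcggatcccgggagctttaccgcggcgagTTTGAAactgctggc
Cdc20: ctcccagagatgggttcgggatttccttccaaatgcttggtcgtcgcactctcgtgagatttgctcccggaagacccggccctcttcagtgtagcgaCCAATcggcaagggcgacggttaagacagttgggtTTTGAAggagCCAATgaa
Top2a: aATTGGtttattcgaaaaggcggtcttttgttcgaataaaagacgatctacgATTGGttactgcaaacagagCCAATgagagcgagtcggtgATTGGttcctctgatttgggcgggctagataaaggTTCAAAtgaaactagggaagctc
Mki67: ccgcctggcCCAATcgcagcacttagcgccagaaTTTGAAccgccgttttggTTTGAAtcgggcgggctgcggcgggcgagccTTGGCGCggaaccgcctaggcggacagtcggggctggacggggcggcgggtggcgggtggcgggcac

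In the Mcm6 stretch, 2 runs of capitals each hold a pair of overlapping E2F sites, 1 on either strand, and no homology region is present. Rrm1 shows an E2F site between 2 CCAAT boxes. Cdc20 has the opposite arrangement, with a homology region 18 bases before the start, a CCAAT box on either side of it and no E2F site. Top2a carries a homology region close to the start and 4 CCAAT boxes, and Cdk1 and Mki67 carry both kinds of site. An E2F site was found in 14 of the 23 G1/S windows (60.9%) and in 3 of the 25 G2/M windows (12.0%), against 9.57% of the 32851 windows of all 27025 gene symbols. A homology region was found in 4 G1/S windows (17.4%) and in 17 G2/M windows (68.0%), against 17.9% of all windows. CCAAT boxes were common in both groups, in 16 G1/S windows (69.6%) and 22 G2/M windows (88.0%), against 37.4% of all. All 17 G2/M windows with a homology region also held a CCAAT box, a combination found in 6.95% of all windows. The reverse CCAAT box ends in letters that can begin an E2F site, so the matches are not independent, and they describe letters and not binding.

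**Figure D1:**
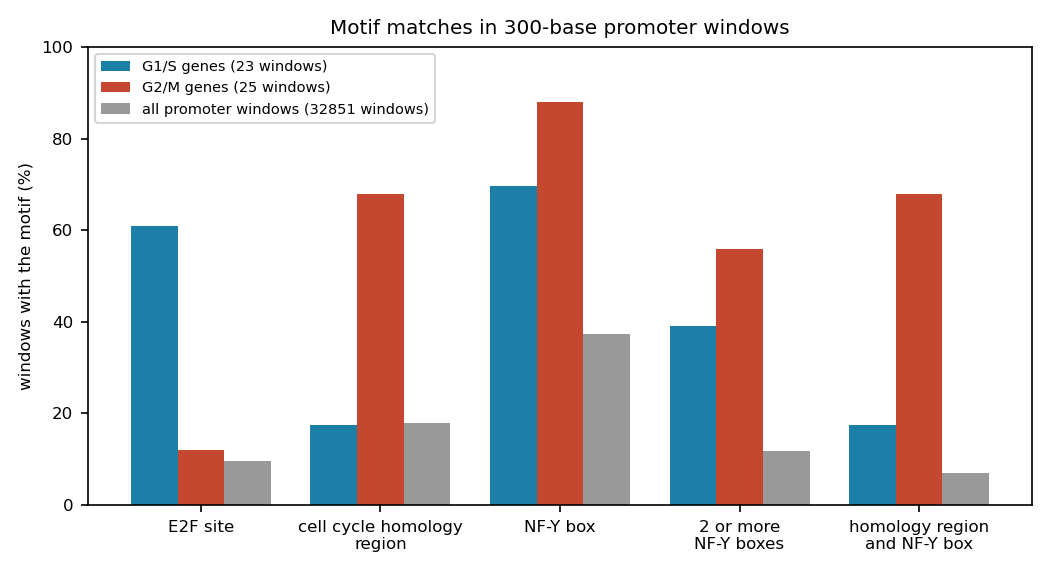
Share of promoter windows (%) that hold each motif, for 23 windows of G1/S genes, 25 windows of G2/M genes and all 32851 windows; bars start at 0 and the NF-Y box is the CCAAT box. E2F sites stand out in G1/S genes (60.9%) and homology regions in G2/M genes (68.0%).

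Nearly all of the cycle genes were upregulated on day 21. With DEGs defined by an adjusted p under 0.05 in edgeR's quasi-likelihood test and a fold change over 1.5, 50 of the 55 genes were higher on day 21 and 0 were lower, against 19.6% higher and 15.5% lower among the 16592 genes tested. At an unadjusted p under 0.05, 0 of the 55 were lower in edgeR, DESeq2 or limma-voom. The median log2 fold change was 2.42 over the 55 genes and 0.03 over all genes tested. In 51 of them every day-21 mouse lay above every day-0 mouse in CPM, as in 30.7% of all genes tested. The G2/M genes moved further than the G1/S genes. Of the 30 G2/M genes 29 rose, with a median log2 fold change of 3.53, and of the 25 G1/S genes 21 rose, with a median of 1.43. With genes at the detection floor set to their lower bounds, the G2/M median was 2.92. A log2 fold change over 2 was seen in 24 G2/M and 7 G1/S genes, and in 6.18% of all genes tested, and over 3 in 16 G2/M and 3 G1/S genes, against 2.53% of all.

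**Figure D2:**
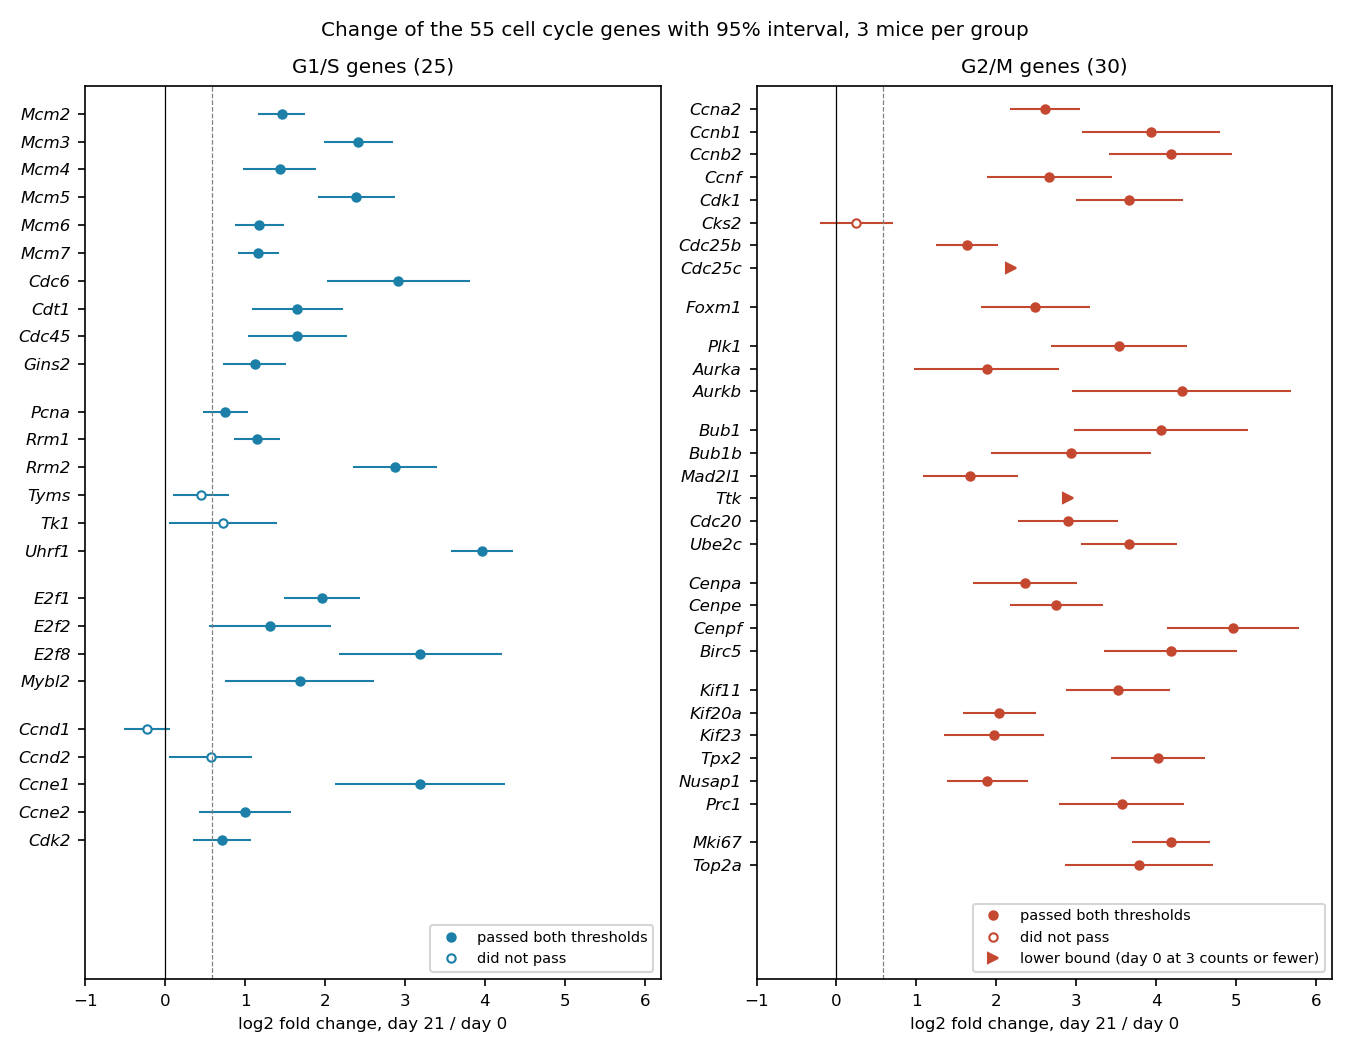
Log2 fold change of each gene (day 21 over day 0, horizontal axis) with its 95% interval from the edgeR fit, 25 G1/S genes on the left and 30 G2/M genes on the right, grouped by role; the dashed line marks a fold of 1.5 and triangles are lower bounds. Filled points, the 50 genes that passed both thresholds, lie to the right of the dashed line, with the G2/M genes farther out.

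The count filter bears on these numbers. Of the 55 genes, 20 fell short of it in at least 1 day-0 mouse and passed with the help of their day-21 counts. Of these, 16 are G2/M genes. Some, such as Cdc25c with 0 counts in every day-0 mouse, could not have been tested without a rise. Of the 35 genes that passed on their day-0 counts alone, 30 were higher on day 21, against 16.3% of the 14732 genes of this kind. The order of the groups was the same here, with a median log2 fold change of 1.18 in 21 G1/S genes, 17 of which rose, and of 2.42 in 14 G2/M genes, 13 of which rose. These G2/M genes also began lower, at a median day-0 level of 0.447 CPM per kilobase of exon against 1.76 in the G1/S genes. The part of the starting level in the difference between the groups was not tested. Another limit is scaling. Without TMM, by library size alone, the median of all genes moved up by 0.39 on the log2 scale, and the share of DEGs that were higher went from 55.8% to 81.7%. Mice were the replicates, and a two-sided exact permutation test of 3 against 3 mice cannot go below p = 0.1 for a single gene.

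**Figure D3:**
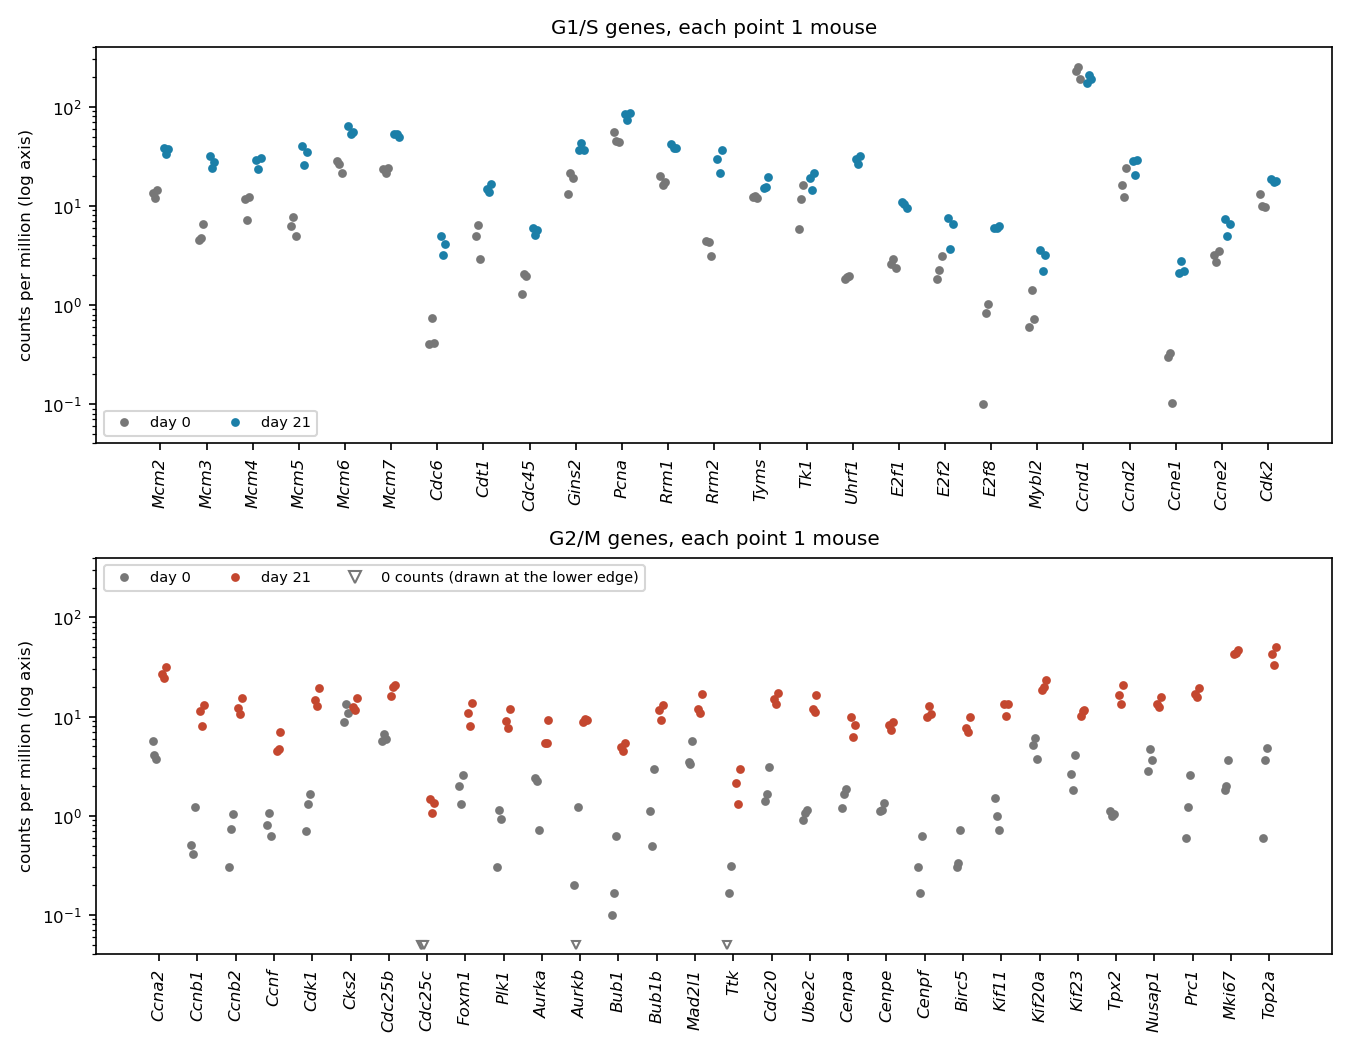
Normalized level (CPM) of each gene in each mouse on a log axis, G1/S genes above and G2/M genes below; grey points are the 3 day-0 mice, coloured points the 3 day-21 mice and open triangles mice with 0 counts. Day-21 points lie clear of day-0 points except in Tk1, Ccnd1, Ccnd2 and Cks2.

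All 10 genes that license origins and unwind DNA rose, with log2 fold changes from 1.12 to 2.92 (values of this kind are given with their SE from the fit). Mcm5, a subunit of the hexameric helicase, stood at 6.32, 7.75 and 4.95 CPM in the day-0 mice and at 40.5, 25.6 and 34.6 CPM in the day-21 mice. The groups were far apart and the log2 fold change was 2.39 ± 0.22, close to the 2.42 ± 0.19 of Mcm3. The other 4 helicase subunits rose less, with 1.46 ± 0.13 for Mcm2, 1.43 ± 0.20 for Mcm4, 1.18 ± 0.14 for Mcm6 and 1.17 ± 0.11 for Mcm7. Mcm6 and Mcm7 were the highest of the 6 per kilobase of exon on day 0, at 5.42 and 5.17 CPM per kilobase, and on day 21 the 6 subunits stood at 5.24 to 12.3 CPM per kilobase, with a smaller ratio between the highest and the lowest. Cdc6, which loads the helicase, was nearly silent on day 0, with 4, 9 and 4 counts, and had 70, 53 and 67 counts on day 21 (log2 fold change 2.92 ± 0.40). Its partner Cdt1 rose by 1.65 ± 0.26, as did Cdc45 (1.65 ± 0.28), which joins the active helicase. Gins2, another helicase cofactor, rose by 1.12 ± 0.18, but 67.3% of its exon bases lie opposite exons of Gse1, and the strand setting of the counts is not given in the sources used here.

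Genes of the replication fork and of nucleotide supply were less uniform, and 4 of 6 rose. Pcna, the sliding clamp, was abundant on day 0, with 55.3, 45.3 and 44.1 CPM, and reached 83.8, 73.3 and 87.0 CPM on day 21. That is a log2 fold change of 0.75 ± 0.12 at an adjusted p of 0.000761. The 2 subunits of ribonucleotide reductase, which makes deoxynucleotides, did not move alike. Rrm1 went from 20.1, 16.2 and 17.4 CPM to 42.0, 38.7 and 38.2 CPM (1.15 ± 0.13), while Rrm2, the subunit whose supply is limited to S phase, went from 4.41, 4.29 and 3.09 CPM to 29.4, 21.3 and 36.3 CPM (2.87 ± 0.24). Their 95% intervals, 0.86 to 1.43 and 2.35 to 3.40, did not overlap. Uhrf1, which brings the maintenance DNA methyltransferase to new DNA, rose most of all G1/S genes. Its counts were 18, 23 and 19 on day 0, then 424, 447 and 522 on day 21, a log2 fold change of 3.96 ± 0.18. Thymidylate synthase, Tyms, had an adjusted p of 0.0392 but a log2 fold change of 0.45 ± 0.16, short of the fold threshold, although its day-21 mice all lay above its day-0 mice. Thymidine kinase, Tk1, varied on day 0 (5.82, 11.6 and 16.1 CPM) and overlapped with day 21 (19.2, 14.6 and 21.6 CPM), and its log2 fold change of 0.72 ± 0.30 had an adjusted p of 0.074. Without day 0 replicate 3, Tk1 passed both thresholds at 1.04.

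All 4 transcription factors of the G1/S group rose. E2f1, an activator of replication genes, had 26, 35 and 23 counts on day 0, then 155, 176 and 154 on day 21 (log2 fold change 1.96 ± 0.21). E2f2, a second activator, rose by 1.31 ± 0.34. E2f8, an E2F that represses the same genes late in S phase, rose further, from 1, 10 and 10 counts to 84, 101 and 103 (3.19 ± 0.46). Mybl2, the B-MYB of the MuvB complex, rose by 1.68 ± 0.42 from 6, 17 and 7 counts to 51, 37 and 52. Activators and the repressor thus rose together, and E2f8 had the lowest day-0 level of the 4 per kilobase.

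The cyclins did not move alike. Ccnd1, cyclin D1, which answers to growth signals, was the most abundant of the 55 genes per kilobase on both days. Its CPM values were 232, 250 and 188 on day 0 and 174, 207 and 190 on day 21. The groups overlapped, and the log2 fold change was -0.23 ± 0.13 (adjusted p = 0.177), with a change of sign to 0.16 by library size alone. Ccnd2, cyclin D2, stood at 16.2, 12.4 and 24.0 CPM and then at 28.3, 20.5 and 29.1 CPM, which overlapped as well (0.57 ± 0.23, adjusted p = 0.0688). Without day 0 replicate 3 it passed at 0.85, and without day 21 replicate 2 at 0.72. Ccnd2 also passed with upper quartile scaling, by library size alone, with limma-voom and with a replicate block. The E cyclins, which carry cells into S phase, rose. Ccne1 had 3, 4 and 1 counts on day 0, then 30, 46 and 36 on day 21 (3.19 ± 0.48), and Ccne2 had 32, 33 and 34 counts and then 103, 83 and 108 (1.00 ± 0.26). Per kilobase, Ccne1 stood at 0.0386 to 0.159 times the level of Ccne2 in day-0 mice and at 0.382 to 0.728 times in day-21 mice. Their kinase Cdk2 rose by 0.71 ± 0.16.

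The cyclins of S, G2 and M phase and their kinase also rose. Ccna2, cyclin A2, of S and G2 phase, went from 57, 50 and 36 counts to 378, 411 and 514 (2.61 ± 0.20). Ccnb1 and Ccnb2, the B cyclins of mitotic entry, had 5, 5 and 12 counts and 3, 9 and 10 counts on day 0, and 160, 135 and 215 and 172, 177 and 252 counts on day 21. These are log2 fold changes of 3.94 ± 0.39 and 4.18 ± 0.35, and no day-21 mouse came near the day-0 range. Cdk1 went from 7, 16 and 16 counts to 208, 216 and 315 (3.66 ± 0.30). Per kilobase, Cdk1 stood at 0.0674 to 0.215 times the level of Cdk2 on day 0 and at 0.942 to 1.37 times on day 21. The size of these ratios depends on the exon lengths used, 4934 bases for Cdk1 and 6219 for Cdk2. By its longest coding transcript Cdk2 is the shorter gene, with 2357 start positions of 50-base words against 4326 for Cdk1. Ccnf, a cyclin that directs ubiquitination, rose by 2.67 ± 0.35. The phosphatase Cdc25b, which activates CDK1, rose by 1.64 ± 0.17 from 57, 80 and 57 counts to 227, 336 and 336. Its relative Cdc25c had 0 counts in all 3 day-0 mice and 21, 18 and 22 counts on day 21, at least 4.56-fold higher against a floor of 3 counts in each library. Cks2, a small binding partner of CDK1, was the exception. It was the most abundant G2/M gene per kilobase on day 0, its groups overlapped (8.72, 13.5 and 10.9 CPM, then 12.4, 11.6 and 15.6 CPM) and its log2 fold change was 0.25 ± 0.20 (adjusted p = 0.342).

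Foxm1, the transcription factor of the mitotic wave, rose from 20, 16 and 25 counts to 154, 136 and 226 (2.49 ± 0.31). The 3 mitotic kinases rose as well. Plk1, which acts in centrosome maturation and at the spindle, went from 3, 14 and 9 counts to 128, 128 and 193 (3.54 ± 0.38). Aurka, the kinase of the spindle poles, began from a more uneven day-0 level of 24, 27 and 7 counts and reached 76, 90 and 150 (1.88 ± 0.41). Aurkb, the kinase of the chromosomal passenger complex, had 2, 0 and 12 counts on day 0, then 124, 158 and 150 on day 21 (4.32 ± 0.62). Day-0 replicate 3 supplied most of the day-0 counts of Aurkb, and without that mouse the gene was at least 33.3-fold higher against the floor, while without replicate 2 the log2 fold change was 3.66. Birc5, survivin, a partner of Aurkb in the same complex, went from 3, 4 and 7 counts to 109, 116 and 162 (4.18 ± 0.37).

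All 6 genes of the spindle checkpoint and of anaphase onset rose. The checkpoint kinase Bub1 had 1, 2 and 6 counts on day 0, then 69, 75 and 88 on day 21 (4.06 ± 0.49), and Bub1b, BubR1, had 11, 6 and 29 and then 166, 156 and 214 (2.93 ± 0.45). Mad2l1, which with BubR1 holds back CDC20, was better expressed on day 0 at 35, 40 and 55 counts and rose by 1.67 ± 0.27. Ttk, the kinase at the head of the checkpoint, had 0, 2 and 3 counts and then 30, 22 and 48, at least 7.43-fold higher against the floor in each library. Cdc20 went from 14, 20 and 30 counts to 211, 226 and 279 (2.90 ± 0.28). Ube2c, the ubiquitin-conjugating enzyme that works with it, went from 9, 13 and 11 counts to 170, 186 and 269 (3.66 ± 0.27). Without day 0 replicate 3, the log2 fold change of Bub1b was 3.84, and Bub1 and Ttk were at least 17.9-fold and 7.75-fold higher against the floor.

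Centromere and spindle genes rose without exception. Cenpf, a large kinetochore protein of G2 and M phase, showed the largest measured rise among genes above the floor, from 3, 2 and 6 counts to 139, 215 and 175 (4.96 ± 0.37, 99.5% of all genes tested being lower). Cenpa, the histone that marks centromeres, rose by 2.36 ± 0.29 and the motor Cenpe by 2.75 ± 0.26. Of the spindle motors, Kif11, which pushes the poles apart, went from 15, 12 and 7 counts to 191, 171 and 220 (3.52 ± 0.29). Kif20a and Kif23, motors of cytokinesis, rose by 2.04 ± 0.21 and 1.97 ± 0.28 from 52, 73 and 36 and 26, 22 and 40 counts. Tpx2, an assembly factor that activates Aurora A, had an even day-0 level of 11, 12 and 10 counts and reached 234, 224 and 343 (4.02 ± 0.26). Nusap1, which bundles microtubules, rose by 1.89 ± 0.23, and Prc1, which crosslinks the central spindle, by 3.57 ± 0.35 from 6, 15 and 25 counts to 239, 263 and 318. Without day 0 replicate 3 the log2 fold change of Prc1 was 4.17 and that of Ccnb1 4.53. Across the 55 genes, leaving out 1 mouse moved the fitted fold of 6 genes by over 1.5 times, and each of the 6 stayed a DEG.

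The familiar proliferation markers were the most abundant G2/M transcripts on day 21 before correction for length. Mki67, the gene of Ki-67, had 18, 24 and 35 counts on day 0, then 608, 732 and 769 on day 21 (4.19 ± 0.22, adjusted p = 1.06e-06). Top2a had 6, 44 and 47 counts and then 605, 549 and 820 (3.78 ± 0.42). Among the day-0 mice, replicate 3 was highest for both, and replicate 1 was far below the others for Top2a. Per kilobase, Mki67 stood at 0.00778 to 0.0195 times the level of Pcna on day 0 and at 0.122 to 0.142 times on day 21, so these commonly used markers gave folds of very different size in the same mice.

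The balance between the groups could be read within single mice. Summed per kilobase, the 30 G2/M genes gave 22.8, 31.2 and 29.4 CPM in the day-0 mice and 104, 94.7 and 127 CPM in the day-21 mice. The G1/S genes without the D cyclins gave 59.2, 56.3 and 55.6 CPM and then 150, 129 and 149 CPM. The ratio of the sums was 0.386, 0.554 and 0.529 on day 0, a mean of 0.490 ± 0.091 (SD, n = 3), and 0.692, 0.736 and 0.850 on day 21, a mean of 0.759 ± 0.082 (SD, n = 3). No day-21 mouse fell within the day-0 range. Cks2 made up 57.4% of the day-0 G2/M sum and 17.6% of the day-21 sum. Without Cks2 the mean ratio was 0.208 ± 0.036 on day 0 and 0.625 ± 0.066 on day 21, and in CPM not divided by length it was 0.283 ± 0.047 and 0.736 ± 0.076 (SD, n = 3), both computed after the values were seen. The groups of mice did not overlap in any of the 3 forms. These ratios are descriptions of 3 mice a group and were not tested, and in whole tissue a larger number of dividing cells and more RNA in each cannot be told apart.

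**Figure D4:**
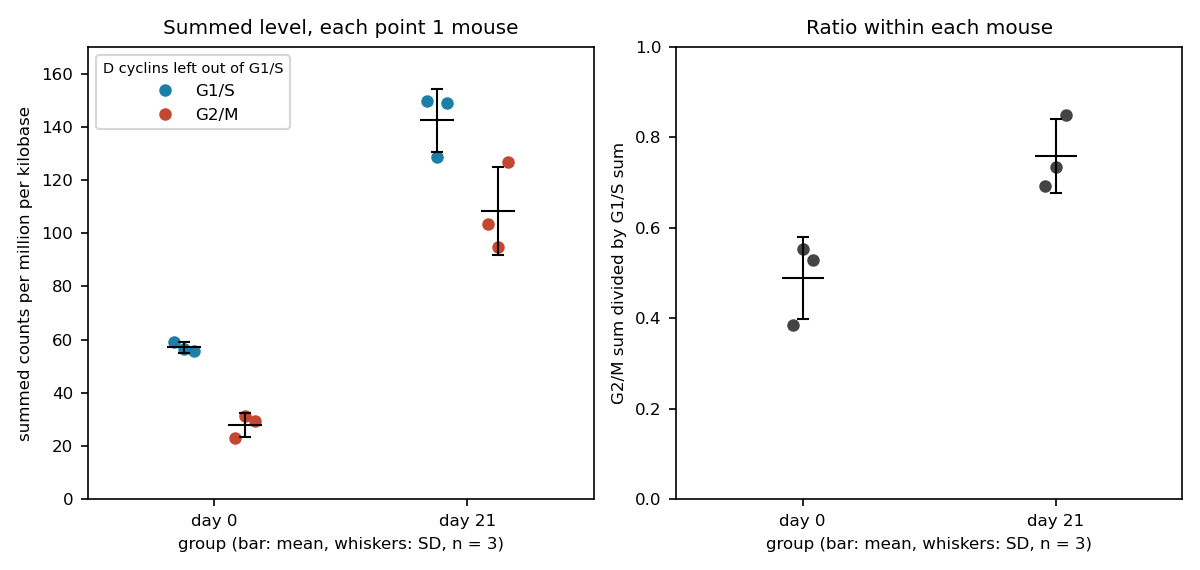
Left, summed level (CPM per kilobase of exon) of the G2/M genes and of the G1/S genes without the D cyclins in each mouse; right, G2/M sum divided by G1/S sum; points are mice, bars the mean and whiskers the SD (n = 3). Both sums are higher on day 21, and the mean ratio is 0.490 on day 0 and 0.759 on day 21.

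Genes that were scarce on day 0 rose further than genes that were already abundant. The 10 genes lowest per kilobase on day 0, of which 7 are G2/M genes, changed by a median of 3.44 on the log2 scale, and the 10 highest, of which 9 are G1/S genes, by 0.94. Across the 55 genes, Spearman's rho between the day-0 level per kilobase and the log2 fold change was -0.82, and across all genes tested it was -0.46. It is a description only, since both use the same day-0 counts and the scarcest genes need a rise to pass the filter. Among genes that passed the filter on day-0 counts alone, all 7 cycle genes between 1 and 2 CPM on day 0 were higher, against 26.3% of the 791 genes at that level. Between 2 and 5 CPM all 12 were higher, against 30.0% of 1986 genes. Between 10 and 25 CPM, 6 of 10 were higher, against 18.6% of 3145 genes.

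**Figure D5:**
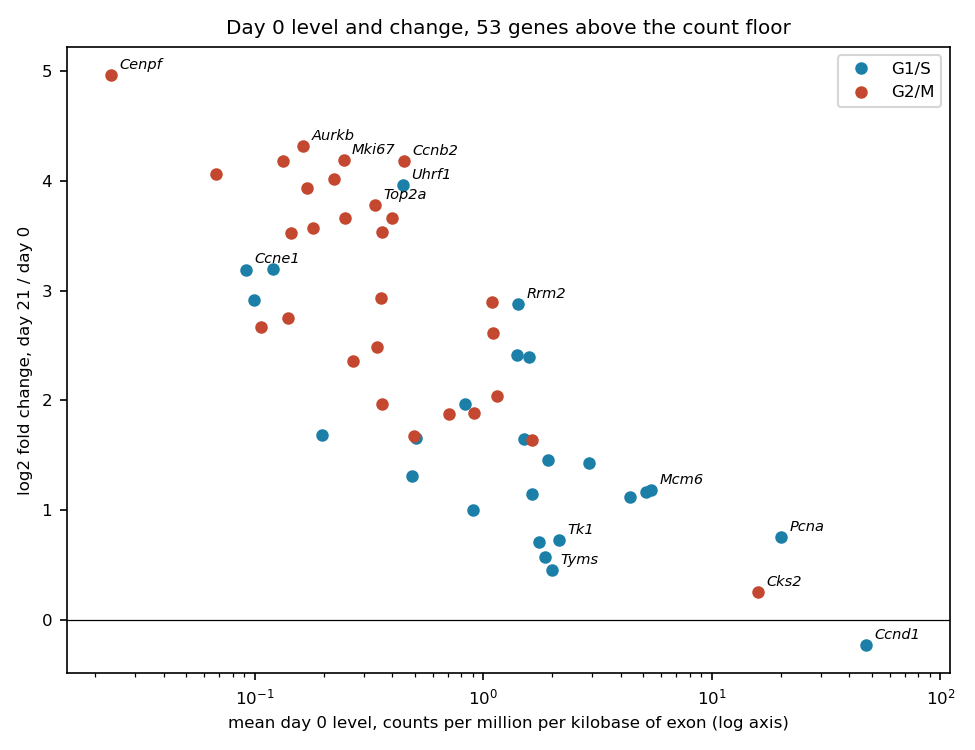
Mean day-0 level (CPM per kilobase of exon, log axis) against log2 fold change for the 53 genes above the detection floor; each point is a gene, blue for G1/S and red for G2/M. Scarce genes such as Cenpf lie at the top left and abundant genes such as Ccnd1 at the bottom right, while Rrm2 and Mcm6 differ in change at higher levels.

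Most further genes of the same processes rose as well. Of 28 other replication genes 21 rose, with a median log2 fold change of 1.45, against 19.6% of all genes tested. Of the 20 that passed the filter on day-0 counts alone 13 rose, against 16.3% of all genes of this kind. The largest rises by the fitted log2 fold change, whose size is not fixed for genes at 0 counts, were in Exo1, an exonuclease of mismatch repair, with 0 counts in the day-0 mice and 41, 31 and 51 on day 21 (at least 9.18-fold), in Dtl, an adaptor that removes CDT1, with 4, 0 and 2 and then 113, 94 and 100 counts (5.04 ± 0.55, or at least 23.6-fold against the floor without day 0 replicate 1 and 4.39 on the log2 scale without replicate 2), and in Clspn, claspin of the replication checkpoint (4.25 ± 0.50). Of 41 other mitosis genes 38 rose, with a median of 3.10, and of the 15 that passed on day-0 counts alone 12 rose. The shares to set beside these are the same 19.6% and 16.3%. The leading genes by the same fitted value, and not by their bounds, were Ska1, of the kinetochore (0 counts, then 29, 19 and 37, at least 6.36-fold), Kif2c, a depolymerizing kinesin (2, 1 and 3, then 93, 114 and 128, at least 24.7-fold), and Cep55, of abscission (4, 0 and 0, then 59, 55 and 69, 4.84 ± 0.71). Without day-0 replicate 1, the only one with a count, Cep55 was at least 14.0-fold higher against the floor, and without replicate 2 its log2 fold change was 4.20. The 3 mitosis genes that did not pass, Bub3, Spc25 and Pttg1, are named here after their values were seen, and their log2 fold changes were 0.15, 0.53 and -0.01.

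Brakes on the cycle did not move as a block. Of 13 cell cycle inhibitors 12 could be tested, of which 5 were higher and 1 was lower on day 21, against 19.6% and 15.5% of all genes tested, with a median log2 fold change of 0.32. The CDK inhibitors of the Cip/Kip family did not pass the test. Cdkn1a, p21, which p53 induces after damage, stood at 88.2, 55.6 and 46.4 CPM on day 0 and at 47.1, 52.4 and 58.9 CPM on day 21 (-0.26 ± 0.21, adjusted p = 0.331), and its sign turned to 0.03 without day 0 replicate 1 and to 0.13 by library size alone. Cdkn1b, p27, had a log2 fold change of -0.08 ± 0.14, and Cdkn1c, p57, of -0.32 ± 0.18, and by library size alone these were 0.31 and 0.07. Cdkn1b also turned to 0.04 without day 0 replicate 3. In the INK4 family, whose members block the D cyclin kinases, Cdkn2c (p18) rose by 1.00 ± 0.16 and Cdkn2d (p19) by 1.09 ± 0.19. Cdkn2b (p15) had a value of 0.50 ± 0.41, which passed at 1.15 without day 0 replicate 3, and Cdkn2a was too scarce to test, at 0, 4 and 0 counts and then 2, 8 and 8. Of the retinoblastoma family, Rbl1 (p107), itself an E2F target, rose by 0.97 ± 0.18, Rbl2 (p130), of resting cells, fell by 0.59 on the log2 scale (SE 0.12) from 99.4, 100.5 and 117 CPM to 76.6, 64.6 and 69.6 CPM, and Rb1 was at 0.15 ± 0.11. The call of Rbl2 was lost without day 0 replicate 3 (-0.53) and without day 21 replicate 2 (-0.53) or 3 (-0.58). The kinases that restrain CDK1 differed too, since Pkmyt1 rose by 1.93 ± 0.33 and Wee1 was at -0.22 ± 0.21 with overlapping groups, or at 0.05 without day 0 replicate 1 and at 0.17 by library size alone. Fzr1, CDH1 of the anaphase-promoting complex, rose by 0.70 ± 0.18, but lost its call at 0.50 without day 0 replicate 1.

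Of 10 other regulators of G1, 3 rose and 0 fell in edgeR, DESeq2 or limma-voom, with 1 lower in each at an unadjusted p under 0.05. The share of all genes tested was 19.6% higher and 15.5% lower, and of the 9 regulators that passed the filter on day-0 counts alone 2 rose, against 16.3%. Cdk4, the partner of the D cyclins, rose by 0.73 ± 0.11 from 102, 113 and 101 CPM to 164, 184 and 175 CPM, while Ccnd1 did not pass. E2f3 rose by 0.82 ± 0.20, and E2f7, the relative of E2f8, by 2.35 ± 0.59 from 3, 3 and 7 counts to 51, 25 and 23. Without day 0 replicate 1, 5 of the 10 regulators passed.

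Cycle genes moved beside large changes of cell type markers. All 8 macrophage markers were higher on day 21, and their sum went from between 141 and 179 CPM to between 767 and 902 CPM. All 6 T cell markers were higher, with sums of 4.81 to 10.1 CPM and then 25.7 to 29.9 CPM. So were the 6 fibroblast and pericyte markers, with 199 to 247 CPM and then 534 to 856 CPM. In 3 of these 6 the groups of mice overlapped. In the 8 macrophage and 6 T cell markers every day-21 mouse lay above every day-0 mouse, as in 30.7% of all genes tested. All 8 proximal tubule markers were lower. B cell markers stayed scarce, at 0.928 to 2.97 CPM and then 2.21 to 4.06 CPM. Urothelial markers summed to 9.31 to 18.6 CPM and then 57.7 to 71.7 CPM, but 1 of the 5 was called higher, and 1 of 4 neutrophil markers was higher and 2 were lower. In none of these lists was a marker at 0 in all mice of a group. Their part in the rise of the cycle genes was not tested. The order of mice within the day-21 group differed between these sums. In replicate 2, 40 of the 55 cycle genes were lowest, against 37.7% of all genes tested. The macrophage (902 CPM), T cell (29.9 CPM), B cell (4.06 CPM) and distal tubule and collecting duct (950 CPM) sums were highest there. The fibroblast and pericyte (534 CPM), proximal tubule (3582 CPM), urothelial (57.7 CPM) and neutrophil (10.9 CPM) sums were lowest there. The endothelial sum (188 CPM) was also lowest there. The thick ascending limb (3970 CPM) and podocyte (267 CPM) sums lay between those of the other mice. What lies behind this order of 3 mice was not tested.

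Mice of a group differed in a shared way. Day-21 replicate 3 had the highest value of its group in 25 of 30 G2/M genes and in 9 of 25 G1/S genes, against 29.0% of all genes tested. Replicate 1 was highest in 12 of the 25 G1/S genes, against 36.3% of all genes tested. Replicate 2 was lowest in 23 of the 30 G2/M genes, against 37.7%. Among the day-0 mice, replicate 3 was highest in 19 of 30 G2/M genes and replicate 1 lowest in 17, against 35.1% and 33.4% of all genes tested. The median coefficient of variation over the G2/M genes was 40.4% on day 0 and 16.5% on day 21, with low counts on day 0, and for the G1/S genes it was 21.9% and 9.69%.

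Reads of some genes may be shared with other genes. In 18 of the 55 genes, over 10% of exon bases lie opposite another gene or over 10% of 50-base words of the transcript occur in another gene. For Ccnb1 42.1% of words occur in its pseudogenes, and the copy Ccnb1-ps had 0 counts on day 0 and 1, 8 and 0 on day 21. Kif20a shares 29.3% of exon bases with the opposite strand of Cdc23, which had a log2 fold change of 0.49 against 2.04 for Kif20a. Other partners, named after their values were seen, rose themselves, with log2 fold changes of 2.17 for Rccd1, which lies opposite Prc1, and 0.94 for Exosc9, opposite Ccna2. Gm44985, opposite Plk1, had counts of 1, 1 and 0, then 32, 33 and 34 on day 21. The day-0 libraries held no count of Gm2788, which is opposite E2f8, and the day-21 libraries held 12, 19 and 20. Reads over the shared bases of these pairs cannot be told apart without the strand setting. The shared part was 11.1% of exon bases for Prc1, 12.5% for Ccna2, 7.09% for Plk1 and 11.2% for E2f8. Ccnd1 shares 23.4% with LTO1 and Pcna 31.8% of its words with Pcna-ps2, so the levels of these genes are less certain than those of Mki67 or Cenpf, for which 0.649% and 0.361% of words were shared.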

How the data were processed

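Kidney mRNA of 3 day-0 and 3 day-21 mice was read from TruSeq libraries as 2 × 150 bp pairs. The authors deposited raw counts per gene, 1 column a mouse and without normalization. Their processing notes name TopHat and mm10, and the counting program and its strand setting are not given in the sources used here. All identifiers are those of GENCODE mouse release 21, and 28536 of 55450 genes had no count. Groups came from the labels.

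Genes passing filterByExpr of edgeR 4.0.16 in R 4.3.3 (minimum count 10, minimum total 15; 16592 genes) were scaled by TMM and compared with the quasi-likelihood test, and p-values were adjusted after Benjamini and Hochberg over all genes tested. For a DEG the adjusted p had to lie under 0.05 and the fold above 1.5, the thresholds of the study. The biological coefficient of variation was 16.2%. Levels are CPM on TMM-scaled libraries, and CPM per kilobase of exon where genes are compared. Exon length is the union of all annotated exons of a gene, so ratios between genes depend on that choice. Motifs and shared sequence were searched in Python 3.11.15. The edgeR, DESeq2 1.42.0 and limma 3.58.1 steps were tested on simulated data. Alternatives were other scalings, filters, tools and thresholds, a replicate block, each mouse left out, thinned libraries and libraries without the 20 highest genes.

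The 55 genes and the lists were chosen with earlier results of these data known. Named are these genes, all inhibitors, and the 3 largest rises and falls among DEGs of each other list, apart from an item that is not reported here. Titles number the replicates, and how these 3 mice of each group were picked is not given in the sources used here.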

Additional observations from a re-analysis of the deposited data

How the results depend on the processing

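Of the 55 genes, 46 kept their direction and their side of the thresholds under all alternatives in which they could be tested, and 9 did not (Ccnd1, Ccnd2, Ccne2, Cdk2, Cks2, E2f2, Pcna, Tk1 and Tyms). The cause of these shifts was not tested. By library size alone, the median log2 fold change was 1.82 for the G1/S and 3.92 for the G2/M genes, 6 other G1 regulators were DEGs, and the log2 fold change turned to 0.16 for Ccnd1, 0.13 for Cdkn1a, 0.31 for Cdkn1b, 0.071 for Cdkn1c and 0.17 for Wee1. With upper quartile scaling, the log2 fold change of Cdkn1b was 0.0069. With a mean of at least 50 counts, 7 of the 55 genes could not be tested and 25 of 28 other mitosis genes were DEGs. When 0.01 and 2 replaced the thresholds of 0.05 and 1.5, 2 inhibitors and 1 other G1 regulator passed, and at any fold 5 of these regulators did. With each mouse left out in turn, the G2/M median ranged from 3.14 to 3.65, the G1/S median from 1.27 to 1.54 and the number of other G1 regulators called from 3 to 5. The log2 fold change then ranged from -0.46 to 0.026 for Cdkn1a, from -0.21 to 0.039 for Cdkn1b and from -0.37 to 0.047 for Wee1. Genes at 0 counts have no visible level below the floor of 3 counts, which limits their folds to lower bounds.

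By the study's methods each group was killed on its own day, so the same replicate number stands for different mice. The deviations of mice with the same number correlated by -0.02, 0.17 and 0.09, and those of mice with different numbers by -0.18 to 0.12. So few values cannot settle whether the numbers link mice in another way. A replicate block gave 52 DEGs among the 55 genes, adding Tk1 and Ccnd2, with medians of 1.45 for the G1/S and 3.53 for the G2/M genes. Not every mouse correlated best with its own number. Other forms of the G2/M to G1/S ratio were chosen after seeing the data. On day 0 and day 21 the mean ratio was 0.208 and 0.625 without Cks2, and 0.283 and 0.736 in plain CPM.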
